A study of Mus musculus with 12 samples.

Results

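The 9 genes described here belong to the cyclic GMP and ion channel machinery of the rod outer and inner segment: the guanylate cyclases Gucy2e and Gucy2f, the guanylate cyclase activating proteins (GCAPs) Guca1a and Guca1b, the cyclase regulator Rd3, the channel subunits Cnga1 and Cngb1, the exchanger Slc24a1 and the potassium channel subunit Kcnv2. They were chosen by name, for their function, as 9 of the 56748 genes in the deposited table, and all 9 passed the filter on low values in every comparison. Rod-TRAP, in which an epitope-tagged ribosomal protein made in rods after Cre recombination is pulled down on beads with the RNA it is translating, was compared with RNA of the whole retina (input). Every mouse carried the RiboTag allele and i75-Rod-Cre, a Cre that is driven in rods. Control mice carried Pkm2fl/+ (labelled Pkm2_Rodhet, so 1 floxed allele was also present in the controls), and the knockout mice carried Pkm2fl/fl (labelled Pkm2_Rodko, here Pkm2Rodko). The deposited design gives an age of 2 weeks, whereas the methods of the study give 2 months. There were 3 libraries in each of the 4 groups (control rods, Pkm2Rodko rods, control retina, Pkm2Rodko retina), with 13458890 to 22790073 reads on genes per library. The labels do not say whether the libraries of a group came from separate mice, so the p-values measure the spread between these samples, which may be technical.

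In a rod, the membrane guanylate cyclases make cyclic GMP, which holds the cyclic nucleotide-gated channel of the outer segment open in darkness. Light lowers cyclic GMP, the channel closes, and calcium falls because the exchanger goes on removing it. The GCAPs sense the fall of calcium and stimulate the cyclases, so that cyclic GMP recovers. The genes are known for inherited retinal disease in humans.

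The sequences just upstream of 5 of these genes share a short motif, and they are shown because the 5 belong to different parts of the pathway: both cyclases, 1 GCAP and both channel subunits. Each window runs 5′ to 3′ on the gene's own strand, from 250 bases before to 50 bases after the annotated transcription start, and comes from RefSeq on GRCm38.p6, a build that differs from the GRCm39 named in the submitters' processing notes. Capitals mark TAATCC or its reverse complement GGATTA, the core letters bound by photoreceptor homeodomain proteins.
Gucy2e (chr11:69236973-69237272, minus strand): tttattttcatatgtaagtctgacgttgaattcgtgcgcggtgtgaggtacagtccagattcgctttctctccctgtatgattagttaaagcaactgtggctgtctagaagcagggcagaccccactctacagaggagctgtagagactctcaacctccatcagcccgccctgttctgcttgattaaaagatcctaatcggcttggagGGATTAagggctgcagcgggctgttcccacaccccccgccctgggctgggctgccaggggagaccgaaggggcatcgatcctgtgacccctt
Gucy2f (chrX:142196887-142197186, minus strand): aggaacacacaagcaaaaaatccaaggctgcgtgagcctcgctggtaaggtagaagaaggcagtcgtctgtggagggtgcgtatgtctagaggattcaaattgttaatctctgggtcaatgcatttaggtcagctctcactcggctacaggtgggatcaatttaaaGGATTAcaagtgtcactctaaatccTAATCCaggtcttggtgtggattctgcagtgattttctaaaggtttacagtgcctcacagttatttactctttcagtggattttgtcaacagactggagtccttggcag
Guca1a (chr17:47400557-47400856, minus strand): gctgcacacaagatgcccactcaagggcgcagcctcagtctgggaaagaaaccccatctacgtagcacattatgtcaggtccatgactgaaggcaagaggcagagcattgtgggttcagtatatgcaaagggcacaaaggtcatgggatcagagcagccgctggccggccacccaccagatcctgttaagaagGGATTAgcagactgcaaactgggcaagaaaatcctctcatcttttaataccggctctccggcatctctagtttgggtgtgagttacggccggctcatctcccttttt
Cnga1 (chr5:72642703-72643002, minus strand): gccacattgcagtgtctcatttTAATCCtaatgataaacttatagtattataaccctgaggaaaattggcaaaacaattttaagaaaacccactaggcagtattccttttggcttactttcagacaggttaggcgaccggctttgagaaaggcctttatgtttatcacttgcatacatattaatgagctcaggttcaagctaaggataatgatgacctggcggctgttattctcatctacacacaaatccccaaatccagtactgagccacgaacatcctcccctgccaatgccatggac
Cngb1 (chr8:95306536-95306835, minus strand): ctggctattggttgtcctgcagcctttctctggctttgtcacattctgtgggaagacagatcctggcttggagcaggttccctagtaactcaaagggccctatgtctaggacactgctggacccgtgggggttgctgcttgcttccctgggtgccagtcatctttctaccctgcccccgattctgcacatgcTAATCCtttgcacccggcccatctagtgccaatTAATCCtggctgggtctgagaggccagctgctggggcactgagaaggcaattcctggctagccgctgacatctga
A promoter window was found for 7 of the 9 genes, and 5 of these 7 held the motif on either strand, against 7.16% of the 27025 mouse promoter windows of the same length. The windows of Slc24a1 and of Rd3, which has 2 annotated starts, did not hold it, and Guca1b and Kcnv2 were not in the table. In Gucy2e, Guca1a, Gucy2f and Cngb1 the match nearest to the start lay close upstream of it, at positions -42, -57, -59 and -25 counted from the start. The match in Cnga1 lay farther off, at position -228. TGCTGA (or TCAGCA), the core letters of the sites bound by leucine zipper proteins such as NRL, was in none of the 7 windows and in 19.1% of all, and TAATTA was in none and in 5.31% of all. These matches describe letters in a window and were not tested as binding sites.

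The deletion was seen in the libraries as labelled. Pkm, whose reads include both splice forms of pyruvate kinase M, read 52140.7, 51049.0 and 54504.0 deposited units (reads divided by a size factor) in control rods and 23751.0, 22552.6 and 22245.6 in Pkm2Rodko rods, a log2 fold change of -1.20 ± 0.0838 (SE; limma adjusted p = 5.36e-05). In the retina the log2 fold change was -0.65 ± 0.0742 (limma adjusted p = 0.0219). Rod-TRAP also carried rod RNA as its label says. All 10 rod marker genes were higher in control rods than in control retina (median log2 fold change 1.96), and their summed level was 177630 to 183104 CPM (reads scaled to the same library total) in control rods, against 59460 to 68164 in control retina. All 7 cone markers were lower in rods (median -0.70), as were the 8 Müller glia markers at 400.3 to 530.1 CPM summed in control rods and 4569 to 5091 in control retina. Of 10 bipolar markers, 8 were lower in control rods and 1 was higher, with a median of -2.96. The amacrine, ganglion cell, pigment epithelium and microglia markers were all lower in control rods. None of the marker genes was at 0 in a whole group.

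Rod-TRAP libraries held all 9 genes at higher levels than the retina libraries, in both genotypes. To set rods and retina on a common scale, reads were scaled by the trimmed mean of M values (TMM) over the 12 libraries, and a TMM-scaled read is the unit in the following sentences. In control mice 9 of 9 genes were higher in rods at an adjusted p under 0.05, where 23.5% of the 25584 genes tested were higher, and in Pkm2Rodko mice it was again 9 of 9, against 23.9% of all genes. For each of the 9, the lowest rod library lay above the highest retina library in both genotypes, which held for 25.2% of all genes in control mice and 26.3% in Pkm2Rodko mice. The log2 fold changes of the 9 genes had a median of 1.57 in control mice and 1.48 in Pkm2Rodko mice, whereas the median over all genes was -0.37 and -0.32. In these bulk samples, fewer cells of a type and less RNA per cell cannot be told apart. The rod libraries hold RNA pulled down with ribosomes, and the retina libraries hold input RNA. Cell type and binding to ribosomes therefore cannot be told apart in any comparison of rods with retina, including the ratios within a library.

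**Figure D1:**
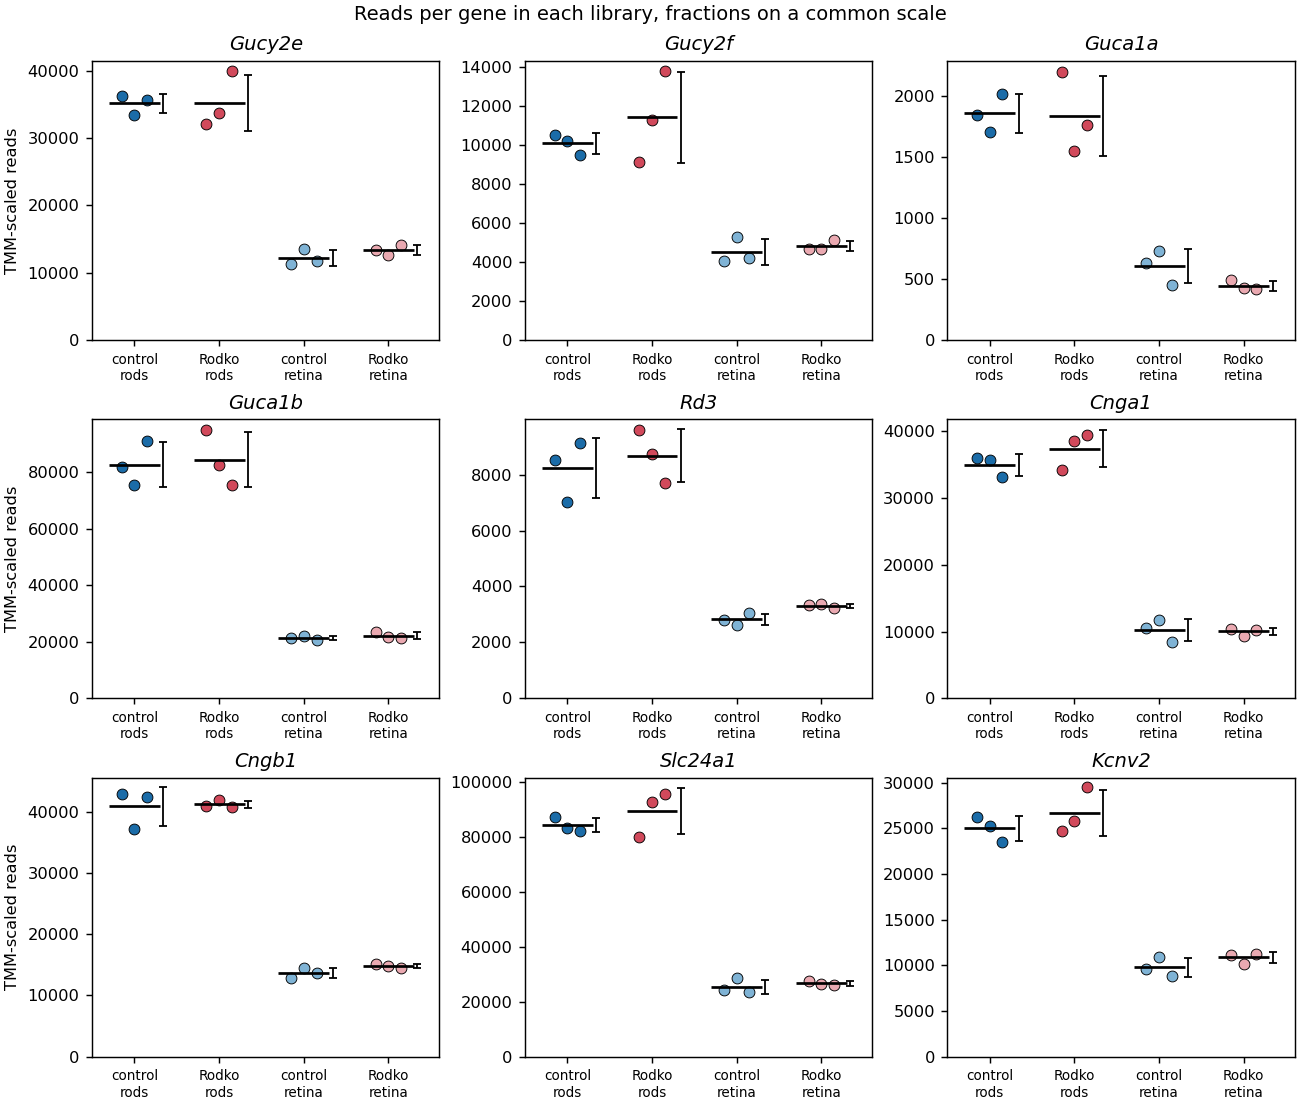
TMM-scaled reads (linear axis from 0) of the 9 genes in each of the 12 libraries, by group, with the group mean as a line and the SD (n = 3) as a bar. All rod libraries sit above all retina libraries in each panel, and the control and Pkm2Rodko rods overlap in each.

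The cyclases differed in level and in how far rods stood above the retina. Gucy2e, which encodes the retinal guanylate cyclase found in both rods and cones, read 36212, 33466 and 35696 in control rods and 11263, 13502 and 11749 in control retina. In Pkm2Rodko mice it read 32100, 33655 and 39957 in rods and 13381, 12561 and 14055 in the retina. The rod libraries were higher than every retina library, by 2.89-fold in control mice (95% confidence interval 2.52 to 3.32, limma adjusted p = 1.58e-09) and by 2.63-fold (2.29 to 3.02, adjusted p = 3.69e-09) in Pkm2Rodko mice. Gucy2f, the other photoreceptor cyclase, read 10538, 10233 and 9516 in control rods and 4062, 5281 and 4209 in control retina. It stood lowest of the 9 genes in its fold over the retina, at 2.25-fold (1.87 to 2.70, adjusted p = 8.60e-07) in control mice and 2.33-fold (1.94 to 2.81, adjusted p = 4.58e-07) in Pkm2Rodko mice. Its Pkm2Rodko rods spread widely, at 9159, 11309 and 13824, while the Pkm2Rodko retinas were close together at 4688, 4692 and 5119.

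The GCAPs stood far apart in level. Guca1b, which encodes GCAP2, read 81792, 75447 and 91123 in control rods and 21233, 22133 and 20546 in control retina. This was the largest rod excess of the 9 genes in control mice, at 3.88-fold (3.36 to 4.47, limma adjusted p = 2.14e-10), and rank 67 of the 25584 genes tested. In Pkm2Rodko mice Guca1b read 95041, 82720 and 75711 in rods and 23503, 21617 and 21306 in the retina, a difference of 3.80-fold (3.30 to 4.39, adjusted p = 1.69e-10). Guca1a, which encodes GCAP1 and lies next to Guca1b in the genome, read only 1844, 1702 and 2016 in control rods and 631, 731 and 453 in control retina. The rods were 3.11-fold higher (2.48 to 3.91, adjusted p = 1.94e-07). In Pkm2Rodko mice Guca1a read 2193, 1546 and 1760 in rods and 489, 426 and 417 in the retina. That difference was 4.09-fold (3.26 to 5.13, adjusted p = 1.44e-08), the largest of the 9 in that genotype. Per kb of annotated exon, Guca1a had 0.0627 (SD 0.000680, n = 3) times the level of Guca1b in control rods.

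Rd3, which encodes a protein that binds the cyclases, keeps them inactive and takes part in their transport to the outer segment, read 8538, 7032 and 9125 in control rods and 2807, 2629 and 3042 in control retina. Pkm2Rodko rods read 9590, 8735 and 7705 and Pkm2Rodko retinas 3340, 3365 and 3216. Rods were thus 2.90-fold higher (2.50 to 3.36, limma adjusted p = 3.01e-09) in control mice and 2.61-fold higher (2.26 to 3.03, adjusted p = 7.85e-09) in Pkm2Rodko mice. The lowest rod library, at 7032, was still above the highest retina library, at 3365.

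The subunits of the cyclic nucleotide-gated channel also stood higher in rods. Cnga1, which encodes the subunit that forms the pore of the rod channel, read 35961, 35681 and 33085 in control rods and 10532, 11782 and 8410 in control retina. In Pkm2Rodko mice it read 34205, 38577 and 39333 in rods and 10378, 9384 and 10273 in the retina. The rod excess was 3.44-fold (2.94 to 4.02, limma adjusted p = 1.13e-09) in control mice and 3.73-fold (3.19 to 4.36, adjusted p = 4.55e-10) in Pkm2Rodko mice. Cngb1, which encodes the modulatory subunit and, from the same gene, the glutamic acid-rich proteins, read 42820, 37239 and 42447 in control rods and 12895, 14555 and 13724 in control retina. The Pkm2Rodko libraries lay close together, at 40956, 41867 and 40760 in rods and 15172, 14734 and 14492 in the retina. Cngb1 was 2.97-fold higher in rods (2.65 to 3.33, adjusted p = 1.78e-10) in control mice and 2.78-fold higher (2.49 to 3.12, adjusted p = 2.33e-10) in Pkm2Rodko mice.

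Slc24a1 encodes NCKX1, the exchanger that removes calcium from the rod outer segment and is attached there to the cyclic nucleotide-gated channel. It read 87304, 83388 and 82391 in control rods and 24337, 28527 and 23564 in control retina, 3.32-fold higher in rods (2.90 to 3.81, limma adjusted p = 4.48e-10). In Pkm2Rodko mice it read 80095, 93021 and 95613 in rods and 27593, 26358 and 26191 in the retina, again 3.34-fold higher in rods (2.91 to 3.84, adjusted p = 3.11e-10). No rod library of Slc24a1 lay below 80095 and no retina library above 28527. Kcnv2 encodes Kv8.2, a potassium channel subunit of the inner segment that is silent on its own. It read 26178, 25215 and 23534 in control rods and 9622, 10925 and 8840 in control retina. The corresponding libraries of Pkm2Rodko mice read 24677, 25799 and 29473 in rods and 11124, 10193 and 11289 in the retina. Rods were higher by 2.56-fold (2.23 to 2.93, adjusted p = 4.66e-09) in control mice and by 2.45-fold (2.14 to 2.80, adjusted p = 6.65e-09) in Pkm2Rodko mice.

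**Figure D2:**
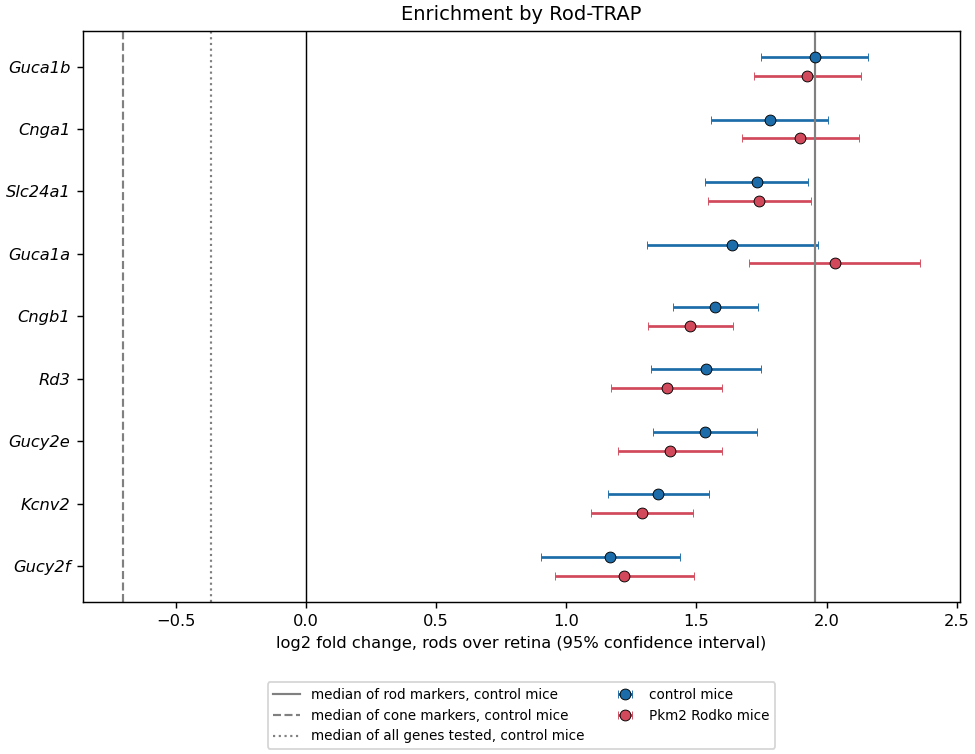
Log2 fold change of rods over retina (points) with the 95% confidence interval (bars) for the 9 genes in control and Pkm2Rodko mice. Vertical lines mark the medians of the rod markers (1.96), the cone markers (-0.70) and all genes tested (-0.37) in control mice, and all 18 intervals lie above 0, from Gucy2f at 1.17 to Guca1a at 2.03.

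How far above the retina the genes stood depended on the scale. Scaled by total reads, 2184 of 14890 genes called in control mice were higher in rods, and on the deposited values, which were scaled within each fraction, 1942 of 15086, against 6001 of 15084 with TMM. All 9 genes stayed higher in rods with each of these scalings, with log2 fold changes from 0.57 to 2.00 over all alternatives tried in control mice and from 0.62 to 2.15 in Pkm2Rodko mice. Transcript length also moved with this contrast: in control mice the median log2 fold change was 0.47 over the quartile of shortest protein-coding genes and -0.15 over the quartile of longest ones, and its part in the differences among the 9 genes was not tested.

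As a share of all reads on genes, which amounts to scaling by total reads, the 9 genes together made up 1.48% ± 0.0220 (SD, n = 3) in control rods and 1.52% ± 0.0319 in Pkm2Rodko rods, and 0.676% ± 0.0492 in control retina and 0.720% ± 0.00871 in Pkm2Rodko retina. The rod and retina libraries did not overlap, with a lowest rod share of 1.46% and a highest retina share of 0.733%.

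Levels were compared between genes only per length, as TMM-scaled reads per kb of annotated exon. Guca1b was highest in control rods with 33915 ± 3230 (SD, n = 3), followed by Slc24a1 with 16183 ± 498.2. The channel subunits and Kcnv2 came next, with 5517 ± 250.6 for Cnga1, 4890 ± 262.0 for Kcnv2 and 4365 ± 333.5 for Cngb1. Gucy2e had 3819 ± 158.7, Guca1a 2123 ± 180.4, Rd3 1549 ± 203.2 and Gucy2f 1243 ± 64.6. No neighbours in this order overlapped in control rods, so that Gucy2f was the lowest of the 9 in each control rod library. In Pkm2Rodko rods the order was the same, but the libraries of Cnga1 and Kcnv2, of Guca1a and Rd3, and of Rd3 and Gucy2f overlapped. In the retina Guca1b and Slc24a1 again led without overlap, and Kcnv2 came above Cnga1, with overlap in control retina and without it in Pkm2Rodko retina. The order in the middle depends on which exons count as the gene. Over the longest coding transcript alone, Cnga1 had 12745, Cngb1 6598 and Rd3 2210 in control rods. There Cngb1 stood above Kcnv2 and Rd3 above Guca1a. On that length Cnga1 stood above Kcnv2 in the retina too, at 3739 against 1918 in control and 3655 against 2128 in Pkm2Rodko retina. The annotated length of Guca1a is only 873 bases, and overlapping annotated genes (Gm5814 and 1700001C19Rik) held under 1% as many reads as Guca1a, at 0.662% and 0.0638%. The pseudogene Gm5297, which overlaps Cnga1, held 0.193% as many reads as Cnga1. How the counter treated reads on overlapping genes is not given, so these shares cannot show whether the counts were affected.

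Ratios of a pair of genes within 1 library do not depend on scaling between libraries, and 7 pairs with related functions, 6 of them reported here, were compared between the 6 rod and the 6 retina libraries. Gucy2e had 3.49 times the reads of Gucy2f in control rods (SD 0.244, n = 3) and 3.12 times in Pkm2Rodko rods (SD 0.333), against 2.71 (SD 0.130) in control retina and 2.76 (SD 0.0893) in Pkm2Rodko retina. Per kb the ratio in control rods was 3.08 (SD 0.216). Every rod library lay above every retina library, a difference of 0.27 on the log2 scale (exact permutation test, two-sided p = 0.00216, the smallest that 6 against 6 allows, 0.00758 adjusted over the 7 pairs). The 2 cyclases are nearly equal in length, at 8331 and 8122 bases for the longest coding transcript. The part of length in the difference between the fractions was not tested. The ratio of Cnga1 to Cngb1 was 0.859 (SD 0.0909) and 0.907 (SD 0.0661) in the rods and 0.746 (SD 0.116) and 0.677 (SD 0.0365) in the retinas. It was higher in rods by 0.32 on the log2 scale, with overlap between the libraries (exact permutation p = 0.0108, 0.0253 adjusted). Cnga1 is the shorter gene of this pair, and its part in the difference was not tested. The permutation tests treat the libraries as unpaired, although same-numbered rod and retina libraries deviated together. Exact sign flips over the 6 library pairs gave p = 0.0312 for each of these 2 ratios. That is the smallest p possible there, and it was not adjusted over the gene pairs.

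The other 4 ratios did not differ past the threshold between the fractions. Slc24a1 to Cnga1 differed by -0.10 on the log2 scale (exact permutation p = 0.0671), and Guca1a to Gucy2e by 0.37 (p = 0.0649, exact permutation). Both crossed the threshold without control retina 1 (exact permutation p = 0.0173 and 0.0260) or without control retina 2 (exact permutation p = 0.0476 and 0.0303). The ratio of Guca1a to Guca1b differed by -0.11 (exact permutation p = 0.472), the mean of -0.32 in control and 0.11 in Pkm2Rodko mice. For Guca1a to Gucy2e the values were 0.11 in control and 0.63 in Pkm2Rodko mice, and the difference between the genotypes was not tested for either ratio. The ratio of Rd3 to Gucy2e differed by -0.00 (exact permutation p = 0.978), with 0.234 reads of Rd3 per read of Gucy2e in control rods and 0.234 in control retina.

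**Figure D3:**
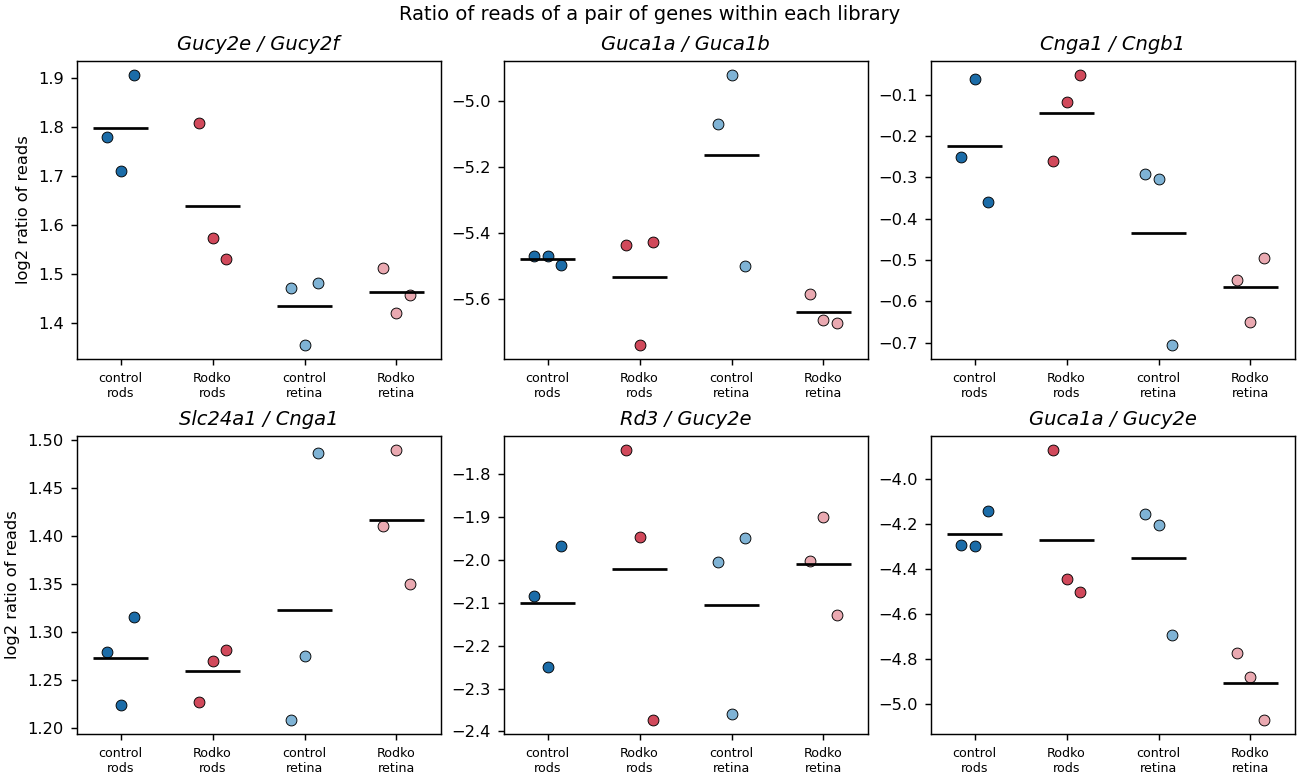
Log2 ratio of reads of 6 pairs of genes within each of the 12 libraries, by group, with the group mean as a line. The ratio of Gucy2e to Gucy2f separates all 6 rod from all 6 retina libraries, and that of Guca1a to Guca1b is lower in the 3 Pkm2Rodko retinas than in the 3 control retinas.

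The genotypes were compared within each fraction on the deposited values, log2-transformed after adding 1. This sets Pkm2fl/fl against Cre-positive Pkm2fl/+ mice, and no group without a floxed allele was among the libraries. In rods, 0 of 9 genes differed at an adjusted p under 0.05 by limma, where 0.0194% of 20658 genes did, and edgeR and DESeq2 also called 0 of 9. None of the 9 had an unadjusted p under 0.05, where 4.77% of all genes had one. The control and Pkm2Rodko libraries overlapped for each of the 9, and 9.89% of all genes showed no overlap. The 9 log2 fold changes lay between -0.02 and 0.17 with a median of 0.09, beside a median of 0.01 over all genes and 0.05 over the rod markers. The intervals show what the 3 libraries a group could have missed. For Gucy2e the log2 fold change was 0.01 with a 95% confidence interval of -0.20 to 0.22, and for Cngb1 it was 0.02 (-0.17 to 0.21). Guca1a had -0.02 (-0.28 to 0.24) and Guca1b 0.04 (-0.20 to 0.27). The values were 0.09 (-0.14 to 0.32) for Rd3, 0.11 (-0.09 to 0.30) for Cnga1, 0.09 (-0.13 to 0.31) for Slc24a1 and 0.10 (-0.10 to 0.30) for Kcnv2. Gucy2f had the highest value and the widest interval, 0.17 (-0.10 to 0.44), equal to 0.931- to 1.36-fold.

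For some of the 9 genes the Pkm2Rodko rods were spread more widely than the control rods. The deposited values of Gucy2f in Pkm2Rodko libraries 1, 2 and 3 were 7135.7, 8924.6 and 10884.4, while control rods had 8247.6, 8024.2 and 7375.7. Guca1b had 74044.9, 65280.2 and 59612.7 in the same Pkm2Rodko libraries, so that library 1 was lowest for the long cyclase gene and highest for the short GCAP gene. Relative to the group mean, Pkm2Rodko library 1 deviated by -0.31 on the log2 scale for Gucy2f and by 0.16 for Guca1b, and library 3 by 0.30 and -0.15. Gucy2e, Slc24a1 and Kcnv2 deviated in the direction of Gucy2f, and Rd3 in that of Guca1b. The deviations did not follow length for all 9 genes. Cnga1, at 2739 bases, had -0.14 in library 1 and 0.08 in library 3, and Cngb1, at 6189 bases, had -0.02 and -0.01. Guca1a, at 873 bases, had 0.26 and -0.04 and was lowest in library 2. Over all genes, the median deviation of the quartile of longest protein-coding genes minus that of the shortest was -0.24 in library 1 and 0.26 in library 3 of the Pkm2Rodko rods, and between -0.12 and 0.11 in the other 10 libraries. Its part in the spread of the 9 genes was not tested. Leaving out 1 library at a time, the log2 fold change of Gucy2f in rods ranged from 0.02 to 0.32.

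**Figure D4:**
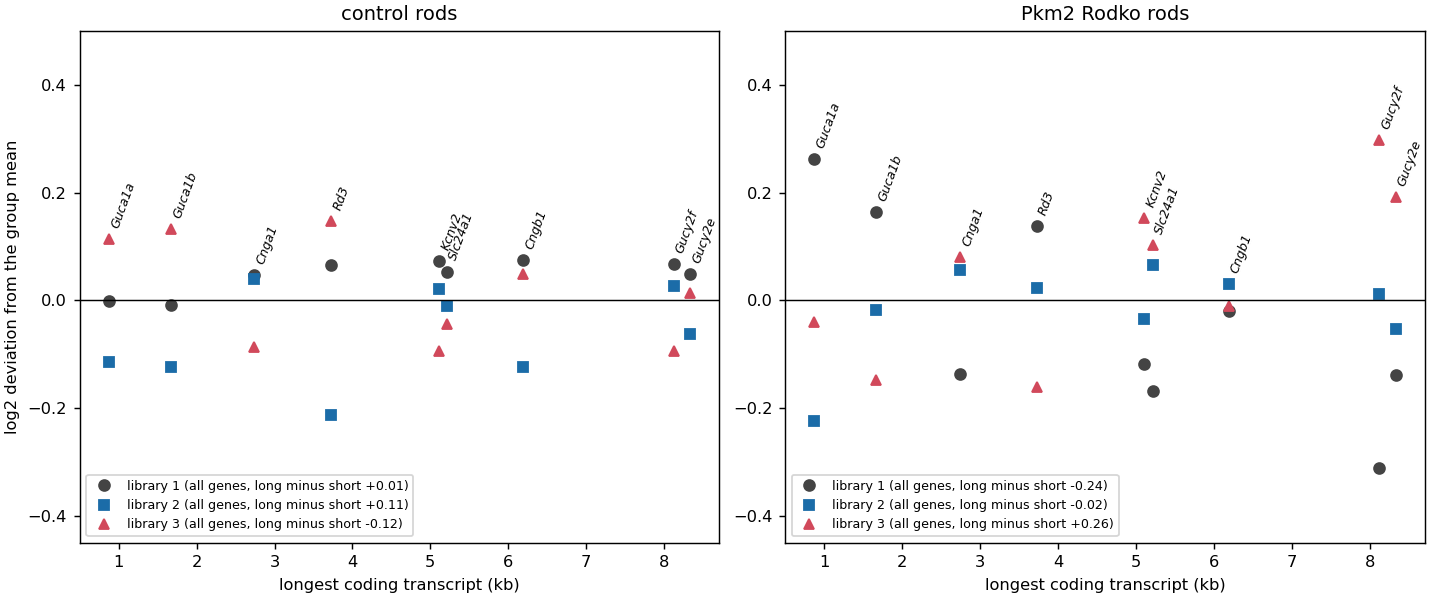
Log2 deviation of each of the 9 genes from its group mean in the control rods and the Pkm2Rodko rods, against the length of the longest coding transcript (kb). The legend gives, for all protein-coding genes, the median deviation of the longest minus the shortest quartile. In Pkm2Rodko rods library 1 lies above and library 3 below the mean for Guca1b, Rd3 and Guca1a, of which Guca1a is lowest in library 2. The other way round holds for Gucy2f, Gucy2e, Slc24a1, Kcnv2 and Cnga1, although Cnga1 is shorter than Rd3. Cngb1 lies near 0 in both libraries.

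In the retina, limma called 0 of 9 genes, where 0.00391% of 25590 genes were called, and so did edgeR and DESeq2. Rd3 and Guca1a, 2 of 9, had an unadjusted p under 0.05, where 4.18% of all genes had one. Rd3 read 3289.3, 3114.2 and 3599.3 deposited units in control retina and 3954.9, 4001.8 and 3880.6 in Pkm2Rodko retina, with no overlap. Its log2 fold change was 0.25 ± 0.0739 (SE; 95% confidence interval 0.09 to 0.41, limma unadjusted p = 0.00564, adjusted p = 0.947). Guca1a read 739.3, 865.4 and 536.1 in control retina and 579.2, 506.4 and 503.1 in Pkm2Rodko retina, and the third control library lay within the Pkm2Rodko range. Its log2 fold change was -0.40 ± 0.146 (SE; -0.72 to -0.09, limma unadjusted p = 0.0159, adjusted p = 0.947). It depended on single libraries, at -0.25 without control retina 2 and -0.60 without control retina 3 (limma adjusted p = 0.701 and 0.559). Relative to Guca1b in the same library, Guca1a differed by -0.48 on the log2 scale between Pkm2Rodko and control retina, without overlap (exact permutation p = 0.1, the smallest that 3 against 3 allows).

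The other 7 genes had log2 fold changes in the retina between -0.00 (Cnga1, -0.23 to 0.23) and 0.17 (Kcnv2, -0.02 to 0.36). Gucy2e had 0.15 (-0.04 to 0.34), Gucy2f 0.12 (-0.09 to 0.33) and Cngb1 0.13 (-0.03 to 0.29). Slc24a1 had 0.09 (-0.10 to 0.28) and Guca1b 0.07 (-0.09 to 0.23). On the deposited values Rd3 and Cngb1 were higher in Pkm2Rodko retina without overlap, 2 of 9 genes where 4.53% of all genes were without overlap in that direction. The median of the 9 genes was 0.12, beside 0.08 for the rod markers and -0.00 for all genes. Markers of other cells of the retina had values of similar size on the other side of 0, none past the threshold. The log2 fold changes were negative for 10 of 10 bipolar markers (median -0.15), 8 of 8 Müller glia markers (-0.14), 7 of 7 cone markers (-0.12) and 5 of 5 microglia markers (-0.28), and for 6 of 7 amacrine (-0.05) and 5 of 6 ganglion cell markers (-0.03). The summed level was 1538.5 to 1649.4 CPM in control and 1270.6 to 1596.1 CPM in Pkm2Rodko retina for the bipolar markers, 4569 to 5091 and 4114 to 4539 CPM for the Müller glia markers, and 1093 to 1143 and 1025 to 1041 CPM for the cone markers. The pigment epithelium markers were positive for 4 of 5 (median 0.54), with a summed level of 44.2 to 217.2 CPM in control and 114.3 to 291.6 CPM in Pkm2Rodko retina. The part of these cells in the values of the 9 genes was not tested.

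**Figure D5:**
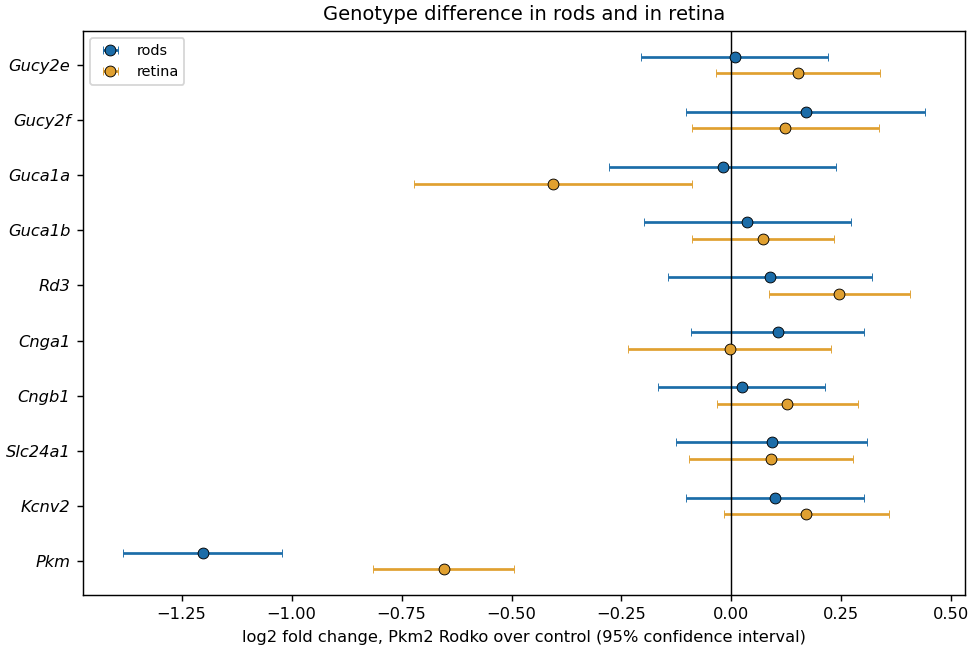
Log2 fold change of Pkm2Rodko over control (points) with the 95% confidence interval (bars) for the 9 genes and Pkm, in rods and in retina. Pkm lies at -1.20 in rods and -0.65 in retina, and the intervals of the 9 genes include 0 except those of Guca1a and Rd3 in retina, which do not pass the adjusted threshold.

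The difference between the genotype effects in rods and in retina was tested as an interaction. It was called for 0 of 9 genes by limma and for 0% of all 25584 genes, although 4.41% of all genes had an unadjusted p under 0.05, and edgeR and DESeq2 also called none of the 9 (DESeq2 called 1 gene of all). No gene of the 9 had an unadjusted p under 0.05. Guca1a came closest, with an effect in rods that exceeded the one in retina by 0.39 on the log2 scale (-0.07 to 0.86, limma unadjusted p = 0.0910, adjusted p = 0.977). For Rd3 the interaction was -0.15 (-0.45 to 0.15, limma adjusted p = 0.977).

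Slc24a1 is the only one of the 9 genes on the chromosome of Pkm, within 10 Mb of it and with 40 protein-coding genes between them in RefSeq on GRCm38.p6, and the part of linkage to the floxed allele in its values was not tested. Its values did not differ past the threshold between the genotypes in either fraction, with log2 fold changes of 0.09 in rods and 0.09 in retina.

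The other genes of the rod cascade showed the same direction between the fractions. Of 14 other rod phototransduction genes, 14 were higher in control rods than in control retina, with a median log2 fold change of 1.90. Gnat1, the alpha subunit of transducin, was among the highest at 2.10 ± 0.112 (SE), and Rgs9bp, the anchor of the protein that turns transducin off, at 0.71 ± 0.104 and Grk1, a kinase of the cascade, at 1.21 ± 0.0956 stood lowest. Of 9 partners of the cyclases and channels and enzymes of guanine nucleotide supply, 8 were higher and 1 was lower. Rom1 and Prph2, the disc rim proteins of which Prph2 is known to bind the channel complex, had 2.09 and 1.98. Guk1, guanylate kinase, had 1.04, and the potassium channel gene Kcnb2 had -3.44. In the genotype comparisons, 0 of the 14 and 0 of the 9 passed the threshold in rods or in retina by limma.

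Relatives of the 9 genes, with functions in other cells, went the other way. Of 18 paralogs 17 could be tested, and in control mice 0 were higher and 12 were lower in rods, where 35.5% of all genes were lower, with a median of -2.35, which was also -2.35 with genes at 0 reads in the control rods set to 3 reads over the group. The cone channel subunits Cnga3 and Cngb3 were lower in rods, at -0.61 ± 0.142 (SE) and -1.08 ± 0.185, as their sisters Cnga1 and Cngb1 were higher. Gucy2g, a receptor-type cyclase, had 0 reads in each control rod library and 17, 17 and 21 reads in control retina, at least 10.7-fold lower in rods against a floor of 3 reads over the 3 libraries. Gucy1a2, a soluble cyclase subunit, had 0, 6 and 2 reads in control rods and 38, 49 and 53 in control retina, a log2 fold change of -3.68 ± 0.728. Cnga4 (0.80 ± 0.469) and Slc24a5 (0.04 ± 0.306) had the highest values and did not pass the threshold in control mice, and Cnga4 passed it in Pkm2Rodko mice (1.28 ± 0.469, limma adjusted p = 0.0284).

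Gucy1b1, the beta subunit of the soluble guanylate cyclase, makes cyclic GMP in response to nitric oxide. In a list whose test and threshold its methods do not name, the study gives as down-regulated in Pkm2Rodko rods, among others, Gucy1b1. It is also among the selected genes that the study measured by qRT-PCR on retinal RNA, as further evidence of lower levels. It had 67, 191 and 88 reads in control rods and 1729, 1763 and 1816 in control retina, a log2 fold change of -3.36 ± 0.152 (SE) between rods and retina (limma adjusted p = 1.01e-10). Its deposited values were 85.9, 139.3 and 108.4 in control rods and 59.8, 61.1 and 62.6 in Pkm2Rodko rods, without overlap, a log2 fold change of -0.82 ± 0.211 that did not pass the threshold (limma unadjusted p = 0.00183, adjusted p = 0.932). In the retina the change was -0.24 ± 0.109 (limma adjusted p = 0.947). Most markers of inner retinal cells moved the same way in rods. The 8 Müller glia markers had a median log2 fold change of -0.38 between Pkm2Rodko and control rods, all 8 negative and none past the threshold. Their summed level was 400.3 to 530.1 CPM in control and 337.4 to 408.5 CPM in Pkm2Rodko rods. The amacrine and bipolar markers had medians of -0.51 and -0.49, with 7 of 7 and 8 of 10 negative. The summed amacrine level was 90.3 to 133.7 CPM in control and 76.3 to 87.0 CPM in Pkm2Rodko rods. Like the Müller glia level, the summed bipolar level overlapped, at 591.5 to 639.9 CPM in control and 536.2 to 631.6 CPM in Pkm2Rodko rods. The part of these cells in the value of Gucy1b1 was not tested.

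Genes whose pattern over the 12 libraries lay nearest to the mean pattern of the 9 were named by the root mean square difference of log2 TMM-scaled values, each gene centred on its own mean. Among 25584 genes, with a median difference of 1.15, the nearest were Crx (0.0455), a photoreceptor transcription factor, Rdh8 (0.0510), the retinol dehydrogenase of the outer segment, and Gnb5 (0.0549), the partner of Rgs9. Ccdc126 (0.0601) and Optn (0.0606) followed. Of the 9 themselves, Cngb1 was closest to their shared mean at 0.0680 and Guca1a farthest at 0.260.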

How the data were processed

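Reads on genes were measured by RNA-seq of polyA RNA in 12 mouse libraries, 3 in each of 4 groups taken from the labels. The submitters' processing notes name CASAVA 1.8.2, HISAT2, DESeq2, edgeR and GRCm39. The counter, the annotation release and the use of strand are not given in the sources used here. The authors deposited 1 table whose values are a signal per gene, the reads divided by a size factor within each fraction and rounded. Whole reads were recovered from the steps between low values: 99.9993% of the positive values were whole within 0.1 read. Tests on log2(value + 1), for genes with a mean of at least 1 in some group, used limma 3.58.1 with Benjamini-Hochberg adjustment over all genes tested (threshold 0.05). Rods and retina were compared on reads scaled by TMM over the 12 libraries. Alternatives were edgeR 4.0.16, DESeq2 1.42.0 (both on whole reads), other scalings, filters and pseudocounts, and leaving out single libraries. The code was tested on simulated data. Lengths came from GENCODE on GRCm38.

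Same-numbered rod and retina libraries deviated together (correlation 0.273 to 0.556 in all 6 pairs), so that the numbers pair the fractions, and a block for the pairs changed no call among the 9 genes. No library was a duplicate of another in its group. The genes named are the 9, Pkm as a check, the 2 highest and 2 lowest of each list of related genes in control rods against retina, any list gene past the threshold between genotypes, Gucy1b1 and the 5 genes nearest in pattern. Some items that this rule names are not reported here. Cnga3, Cngb3 and the overlapping genes were named after their values were seen. The 9 genes and the lists were chosen with earlier results of these data known.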

Additional observations from a re-analysis of the deposited data

How the results depend on the processing

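All 9 genes remained higher in rods than in retina, past the threshold, under each alternative run in both genotypes, and none of the 9 passed it between genotypes or in the interaction under any, with adjusted p-values from 0.489 to 1 by limma, edgeR or DESeq2. The number of all genes called was less steady. Between genotypes in rods it was 4, but 0 without a variance trend, 17 in 1 fit of all 12 libraries and 2 to 6 without 1 library (2 without control rods 1, control rods 2 or Pkm2Rodko rods 3). In the retina it was 1, but 0 with at least 10 reads in every library and 0 to 4 without 1 library. With that read filter 9526 genes were called between the fractions in control mice (15084 without it) and 9652 in Pkm2Rodko mice (15100), since fewer genes were tested. DESeq2 called 1 gene in the interaction and limma 0. With the replicate number as a block between genotypes, 8 genes were called in rods and 0 in the retina. Same-numbered samples of the genotypes did not deviate together (correlation -0.249 to 0.0255 in rods and -0.290 to 0.0376 in retina), so they share only a number.

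Values near 0 changed sign. In rods, Gucy2e had -0.00103 in 1 fit of all 12 libraries and Guca1a 0.000187 by edgeR. The interaction of Slc24a1 was -0.0249 with scaling by total reads, -0.00436 with RLE scaling and -0.00220 by edgeR. Leaving out 1 library gave -0.0885 to 0.0770 for Gucy2e, -0.15 to 0.0917 for Guca1a, -0.0467 to 0.11 for Guca1b, -0.0189 to 0.17 for Rd3 and -0.0380 to 0.0614 for Cngb1 in rods, and -0.14 to 0.11 for Cnga1 in retina. Guca1a in retina kept its sign but ranged from -0.60 to -0.25. For the interaction it gave -0.0849 to 0.19 for Gucy2f, -0.13 to 0.0568 for Guca1b, -0.0747 to 0.0700 for Slc24a1 and -0.14 to 0.00815 for Kcnv2. For ratios within a library it gave -0.0674 to 0.0589 for Rd3 to Gucy2e, -0.14 to -0.0797 for Slc24a1 to Cnga1 and 0.28 to 0.47 for Guca1a to Gucy2e. Over the 6 pairs of a rod and a retina library (replicate block), exact sign flips gave p = 0.0312, unadjusted and the smallest possible. This held for Gucy2e to Gucy2f and for Cnga1 to Cngb1, each higher in rods in 6 of 6 pairs. The pairs, the leave-one-out ratios and the second length were alternatives chosen after seeing the data. The cause of these changes was not tested. The lowest read count among the 9 genes was 440, of Guca1a in Pkm2Rodko retina 3.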
